A study of Drosophila melanogaster with 24 samples.

Results

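Transcript levels of 8 genes of the unfolded protein response of the endoplasmic reticulum (ER), Xbp1, Ire1, Atf6, Hsc70-3, Gp93, Calr, Pdi and Ero1L, were followed in sorted clock neurons of Drosophila melanogaster. The genes were taken by name from the table of transcript counts, and each name matched 1 row. They are 8 of 15610 rows, of which 15083 had at least 1 count in some library.

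The study asked how blocking mitochondrial division or fusion alters the transcripts of clock neurons at different ages. In every group, controls included, the CLK856-Gal4 driver expressed Cas9 and eGFP in clock neurons of male flies, and brains were taken at ZT14 (early night). The groups differ in the guide RNAs that Cas9 is given and in age. The old groups, at about 35 days, are Old Drp1-mut (guides against Drp1, the GTPase that divides mitochondria), Old Marf-mut (guides against Marf, the mitofusin that joins outer membranes), Old Opa1-mut (guides against Opa1, which joins inner membranes) and Old Cas9 (no guides). The young groups, at about 15 days, are Young Drp1-mut, Young Marf-mut, Young Opa1-mut and Young Cas9. Each group has 3 libraries, each made from a separately sorted pool of GFP-positive cells and read as UMIs (molecular tags at the 5' end of the cDNA, so that copies of a molecule are counted once). The 3 pools of a group came from the same suspension of pooled brains. The p-values for libraries therefore measure the spread between pools of a suspension. Effects of genotype or age and those of the suspension itself cannot be told apart. "Mut" names the guides carried; the counts do not show which cells were edited.

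The ER folds proteins that are secreted or sit in membranes. When unfolded protein builds up there, sensors in its membrane signal to the nucleus. Ire1, a kinase and endoribonuclease, cuts an intron out of the Xbp1 transcript, and the spliced form encodes the transcription factor. Atf6 in mammals is a factor that is held in the membrane and released by proteases in the Golgi, and PERK (PEK in flies) slows translation and favours that of ATF4 (crc in flies). Among the genes these factors are known to raise are Hsc70-3 (the fly BiP, the main ER Hsp70 chaperone), Gp93 (the fly GRP94, an ER Hsp90), Calr (calreticulin, a calcium-binding chaperone of glycoproteins), Pdi (protein disulfide isomerase, which forms and shuffles disulfide bonds) and Ero1L (the oxidase that recharges Pdi). Counts per gene add spliced and unspliced Xbp1 together, so they say nothing of Ire1 activity.

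In the Ensembl annotation of the fly genome assembly BDGP6 (the same assembly as dm6) all 8 are protein-coding genes. Xbp1 (FBgn0021872) lies on chromosome 2R from 21143545 to 21145750 on the plus strand, and Atf6 (FBgn0033010) on 2R from 5144733 to 5154756, also plus. Ire1 (FBgn0261984) lies on 3R from 19853908 to 19861291, minus, Gp93 (FBgn0039562) on 3R from 27948711 to 27952151, plus, and Calr (FBgn0005585) on 3R from 9628691 to 9630851, minus. Hsc70-3 (FBgn0001218) lies on X from 11801696 to 11807117, minus. Pdi (FBgn0286818) lies on 3L from 15137738 to 15142840, minus, and Ero1L (FBgn0261274) on 3L from 4170404 to 4173789, plus. Ire1 shares exon bases with MICU3, Gp93 with CG4951 and Pdi with asRNA:CR45396, each on the opposite strand. Whether the counting used strand is not known, so reads of these pairs cannot be told apart. Over all libraries Ire1 had 1894 UMIs and MICU3 had 4017, Gp93 had 8191 and CG4951 had 781, and Pdi had 19737 and asRNA:CR45396 had 69.

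Library depth was 684175 to 2889269 UMIs. All 8 genes had UMIs in every library, with the fewest in Ero1L (20 to 174 per library), Ire1 (24 to 158) and Atf6 (32 to 255), and 511 to 2405 for Calr. All 8 passed the filter on low counts in every comparison. Levels below are TMM-scaled CPM (UMIs scaled to a common library total, with a correction for composition), which are not per length, so levels of different genes were not compared. In such pools fewer cells with a transcript and less of it per cell cannot be told apart. The targeted transcripts were lower in their own old groups for Drp1 (log2 fold change -0.89, SE 0.16, adjusted p = 0.00624 by edgeR's quasi-likelihood F test with Benjamini-Hochberg adjustment over all genes) and Opa1 (-0.68, SE 0.12, adjusted p = 0.000364). Marf stood at -0.27 (SE 0.12, adjusted p = 0.228) in Old Marf-mut against Old Cas9. No target passed the test in the young groups. The 6 clock neuron markers fixed for the check (tim, per, Clk, cry, vri and Pdf) had UMIs in every library and summed to 7239 to 22060 CPM.

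Old Opa1-mut neurons had the highest group mean of 7 of the 8 genes. Atf6 was the exception, with its highest mean in Old Marf-mut. For Xbp1, Ire1 and Hsc70-3 every Old Opa1-mut library lay above every library of all other groups. For Gp93 and Pdi the Old Opa1-mut libraries were clear of the next group in the order of means, but a Young Drp1-mut library (271 CPM of Gp93, against 269 CPM in the lowest Old Opa1-mut library) and an Old Drp1-mut library (615 CPM of Pdi, against 587 CPM in the lowest Old Opa1-mut library) reached into their range. No other neighbouring groups in the order of means were separated, for any of the 8 genes. The 8 levels summed to 3747, 3629 and 3476 CPM in Old Opa1-mut libraries, against 2806, 2966 and 2853 CPM in Old Cas9 libraries. In the other groups the mean sum was 2518 to 2967 CPM, lowest in Young Marf-mut and highest in Old Drp1-mut. The ratio of the highest to the lowest group mean was 1.88 for Ire1, 1.69 for Hsc70-3, 1.6 for Xbp1, 1.56 for Gp93, 1.48 for Ero1L, 1.47 for Atf6, 1.39 for Pdi and 1.19 for Calr.

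**Figure D1:**
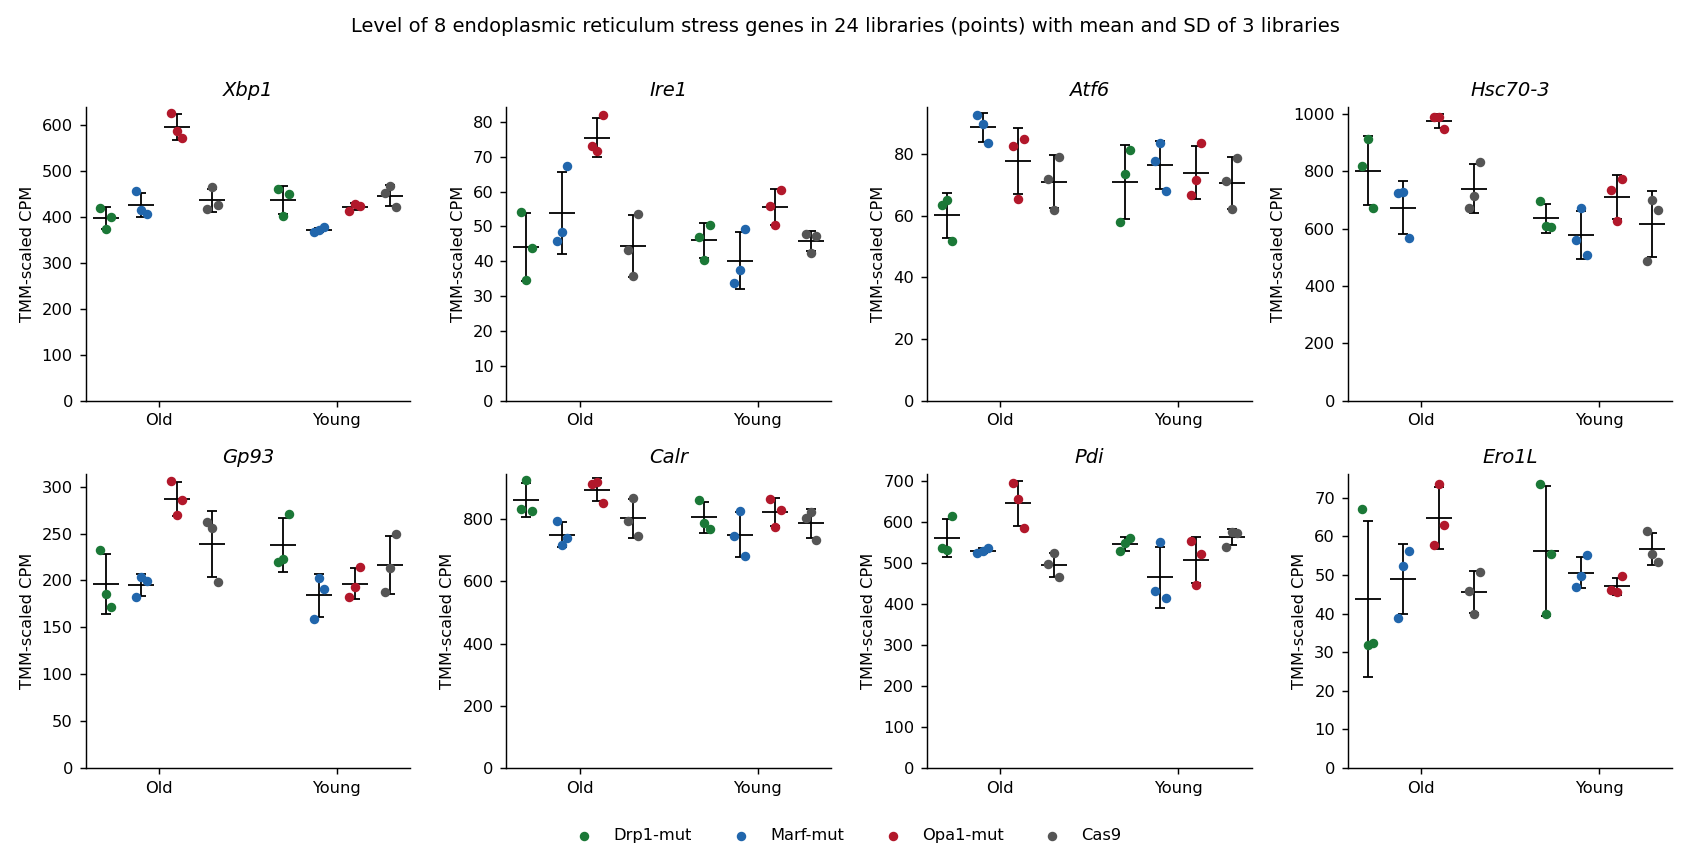
Level of each of the 8 genes in TMM-scaled CPM (linear axes from 0) in the 4 old groups (left) and the 4 young groups (right), in the order Drp1-mut, Marf-mut, Opa1-mut and Cas9. Points are libraries, the long line is the group mean and the bars are the SD of 3 libraries. All Old Opa1-mut points stand above every other point for Xbp1, Ire1 and Hsc70-3, a single library of another group reaches them for Gp93 and for Pdi, and Atf6, Calr and Ero1L overlap more widely.

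Old Opa1-mut against Old Cas9 asks what differs when inner membrane fusion is targeted in aged neurons. Of the 8 genes 5 rose, Xbp1, Ire1, Hsc70-3, Pdi and Ero1L, and none fell. Among all 7119 genes tested 7.54% were called higher at an adjusted p under 0.05. The median log2 fold change was 0.39 over the 8 genes and 0.00 over all genes. All libraries of 6 of the 8 genes (the 5 and Gp93) lay above those of Old Cas9, against 16.4% of all genes.

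Among the sensors and factors, Ire1 moved most. It stood at 73.0, 71.6 and 81.8 CPM in Old Opa1-mut, against 43.4, 35.9 and 53.7 CPM in Old Cas9 (log2 fold change 0.78, SE 0.17, adjusted p = 0.00235, edgeR). MICU3, its neighbour on the other strand, stood at 103, 92.7 and 114 CPM in Old Opa1-mut, against 110, 93.7 and 71.5 CPM in Old Cas9 (0.17, SE 0.15, adjusted p = 0.531), and those libraries overlap. Xbp1 stood at 628, 587 and 573 CPM in Old Opa1-mut, against 419, 466 and 426 CPM in Old Cas9 (0.45, SE 0.09, adjusted p = 0.00115). The lowest Old Opa1-mut library held more Xbp1 than the highest Old Cas9 library. Atf6 did not pass the test, at 82.7, 65.4 and 85.0 CPM in Old Opa1-mut and 71.8, 61.9 and 79.1 CPM in Old Cas9, with overlapping libraries.

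Of the chaperones, Hsc70-3 rose. It stood at 990.1, 988 and 949 CPM in Old Opa1-mut, against 672, 714 and 834 CPM in Old Cas9 (0.40, SE 0.10, adjusted p = 0.00645), with no overlap. Without replicate 1 of Old Cas9 its value was 0.33 and it lost its call (adjusted p = 0.052). Gp93 was not called, at 306, 269 and 286 CPM in Old Opa1-mut and 262, 256 and 199 CPM in Old Cas9 (0.26, SE 0.10, adjusted p = 0.0985), although the libraries do not overlap. Calr was not called either, at 914, 919 and 852 CPM in Old Opa1-mut and 795, 869 and 745 CPM in Old Cas9. In the disulfide pair, Pdi stood at 696, 655 and 587 CPM in Old Opa1-mut, against 498, 524 and 465 CPM in Old Cas9 (0.38, SE 0.09, adjusted p = 0.0071). Ero1L stood at 57.9, 73.6 and 63.1 CPM in Old Opa1-mut, against 45.7, 39.9 and 50.8 CPM in Old Cas9 (0.52, SE 0.16, adjusted p = 0.0418). Both were above Old Cas9 in every library, but the call of Ero1L held in 2 of the 6 fits that leave out a library. It was lost without replicate 2 or 3 of Old Opa1-mut and without replicate 1 or 2 of Old Cas9 (adjusted p = 0.0859 to 0.189). Without replicate 1 of Old Cas9, 3 of the 8 genes were called.

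Depth differed between these groups. Old Opa1-mut libraries held 1492083, 1468850 and 1843669 UMIs and Old Cas9 libraries 1313809, 1286609 and 1109778 UMIs, with no overlap. With log2 depth as a covariate none of the 8 genes was called (adjusted p = 0.0564 for Hsc70-3, 0.126 for Xbp1 and 0.205 for Ire1), while their log2 fold changes stood at 0.60, 0.49 and 0.79 in that order and the median of the 8 at 0.48. With all libraries thinned to equal depth 4 were called, Xbp1, Ire1, Hsc70-3 and Pdi. Under scaling by total counts 6 were called, Gp93 among them. That scaling moved the median of all genes to 0.07 and the higher share of called genes to 71.6%, against 57.2% under TMM. In a fit of all 24 libraries Xbp1, Ire1 and Pdi were called.

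Markers of other cells were summed beside these values. Glial markers (8 listed) summed to 274 to 376 CPM in Old Opa1-mut and 239.7 to 380.2 CPM in Old Cas9, with overlap. Fat body and hemocyte markers (9 listed) summed to 26.2 to 49 CPM in Old Opa1-mut, where Lsp2, Fbp1 and Yp2 had no UMI, and 31.1 to 49.7 CPM in Old Cas9, where Fbp1 had none. Photoreceptor markers (8 listed) summed to 69.5 to 75.1 CPM in Old Opa1-mut, against 82.8 to 91.3 CPM in Old Cas9, without overlap. The clock neuron markers summed to 14400 to 21930 CPM in Old Opa1-mut and 12630 to 14770 CPM in Old Cas9. The part of these differences in the levels of the ER genes was not tested. In the authors' deposited table for the same comparison all 8 log2 fold changes are above 0, and those with an adjusted p under 0.05 are Xbp1 (9.215e-05), Pdi (0.00232), Ire1 (0.02056) and Hsc70-3 (0.02131). In the authors' deposited table Ero1L has 0.51 with an adjusted p of 0.3518.

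**Figure D2:**
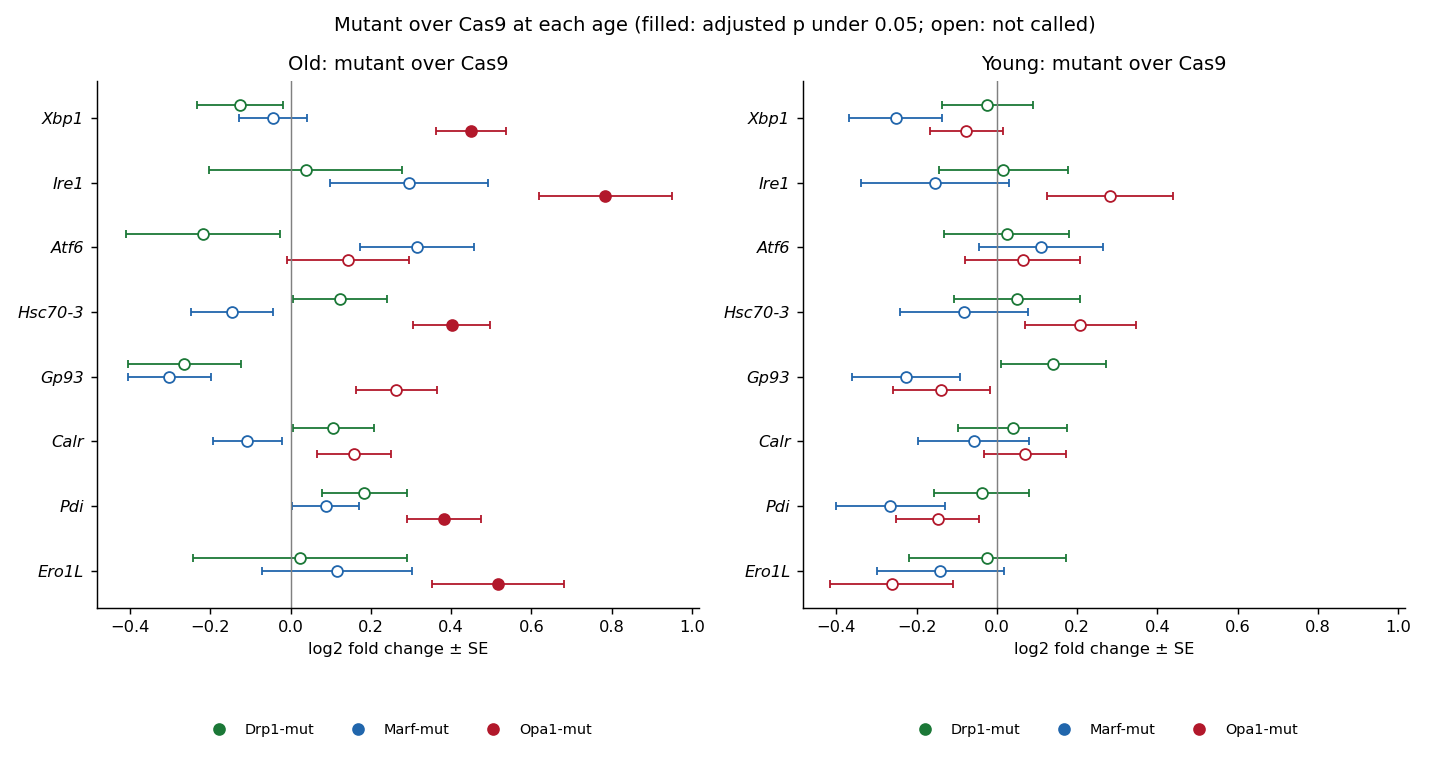
Log2 fold change of each gene in the 3 mutants over Cas9, with its SE, in old flies (left) and young flies (right). Filled points have an adjusted p under 0.05 (edgeR). Filled points appear only for Old Opa1-mut, at Xbp1, Ire1, Hsc70-3, Pdi and Ero1L, and all lie to the right of 0.

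In young flies, Young Opa1-mut against Young Cas9 called none of the 8 genes (2.94% of all 7166 genes were called, or 211, with 75 called without replicate 3 of Young Opa1-mut and 367 without replicate 2 of Young Cas9), and none had an unadjusted p under 0.05. Their log2 fold changes ran from -0.26 for Ero1L to 0.28 for Ire1, with a median of -0.01. Xbp1 stood at 414, 429.8 and 424 CPM in Young Opa1-mut and 453, 467 and 421 CPM in Young Cas9. Pdi stood at 554, 445 and 522 CPM in Young Opa1-mut and 539.9, 576 and 573 CPM in Young Cas9. Ero1L stood at 46.0, 45.6 and 49.6 CPM in Young Opa1-mut and 61.3, 55.5 and 53.4 CPM in Young Cas9, lower in every library without passing the test. Ire1 stood at 56.0, 50.3 and 60.5 CPM in Young Opa1-mut and 47.7, 42.4 and 47.2 CPM in Young Cas9, higher in every library without passing the test. Among all genes 11.9% lay below Young Cas9 in every library and 11.8% above, near the 1 of 8 seen here each way.

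Whether the Opa1-mut effect differs with age was tested as the effect in old flies minus that in young flies, over the 12 libraries concerned. It was larger in old flies for 3 of the 8 genes, and 2.36% of all 7411 genes were called in this direction. The difference of log2 fold changes was 0.53 for Xbp1 (SE 0.12, adjusted p = 0.0107), 0.53 for Pdi (SE 0.13, adjusted p = 0.0219) and 0.78 for Ero1L (SE 0.22, adjusted p = 0.0387). For Xbp1, Gp93, Pdi and Ero1L the effect was below 0 in young flies (-0.08, -0.14, -0.15 and -0.26) and above 0 in old flies. None of these values in young flies had an unadjusted p under 0.05, so a change of sign was not shown. Ire1 (0.50, SE 0.23, adjusted p = 0.217), whose opposite-strand neighbour MICU3 had a like value (0.53, SE 0.21, adjusted p = 0.143), and Gp93 (0.40, SE 0.16, adjusted p = 0.16) did not pass, and Hsc70-3 stood at 0.19 (adjusted p = 0.578). The call of Xbp1 held in all 12 fits that leave out a library, that of Pdi in 7 and that of Ero1L in 3. Without replicate 2 of Young Opa1-mut, replicate 3 of Young Cas9 or replicate 2 of Old Opa1-mut only Xbp1 was called. With log2 depth as a covariate none was called, while the differences stood at 0.65 for Xbp1 (adjusted p = 0.53), 0.66 for Pdi (adjusted p = 0.573) and 0.96 for Ero1L (adjusted p = 0.618), each above its value without the covariate. In that fit 6 of the 8 values were above 0, with Gp93 at -0.035 and Atf6 at -0.34. In the fit of all 24 libraries 1 was called, Xbp1. Under scaling by total counts the median of all genes was 0.11, and 58.2% of called genes were higher, against 42% under TMM; the same 3 genes were called.

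Within Opa1-mut, old against young libraries gave 5 higher genes of 8 and none lower, where 7.62% of all 7204 genes were called higher. The libraries are the same Old Opa1-mut ones, so this is not independent of the comparison with Old Cas9. Gp93 stood at 306, 269 and 286 CPM in Old Opa1-mut, against 182, 193 and 215 CPM in Young Opa1-mut (log2 fold change 0.55, SE 0.09, adjusted p = 0.000572, edgeR). Hsc70-3 stood at 990.1, 988 and 949 CPM in Old Opa1-mut, against 734, 626 and 771 CPM in Young Opa1-mut (0.46, SE 0.09, adjusted p = 0.00163). Xbp1 rose by 0.50 (SE 0.08, adjusted p = 0.000319). These 3 genes kept their calls in every fit that leaves out a library and under the 8 other settings tried. Ire1 rose by 0.45 (SE 0.14, adjusted p = 0.037) and lost its call in each of the 6 fits that leave out a library (adjusted p = 0.0554 to 0.176). Pdi rose by 0.35 (SE 0.09, adjusted p = 0.0163) and lost its call without replicate 2 or 3 of Young Opa1-mut and without replicate 1 or 2 of Old Opa1-mut, where 3 genes were left. Ero1L, at 0.46 (SE 0.15, adjusted p = 0.0502), was just outside the threshold. In 6 of the 8 genes every Old Opa1-mut library lay above every Young Opa1-mut library, against 16.5% of all genes, and Atf6 (0.08) and Calr (0.12) overlapped.

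In the controls, Old Cas9 against Young Cas9 called none of them, with 2.45% of 7089 genes called in all (174 genes, with 51 called without replicate 3 of Old Cas9 and 355 without replicate 2 of Young Cas9), and none had an unadjusted p under 0.05. The log2 fold changes ran from -0.30 for Ero1L to 0.28 for Hsc70-3, with 4 of 8 values above 0. Pdi stood at 498, 524 and 465 CPM in Old Cas9 and 539.9, 576 and 573 CPM in Young Cas9, and Ero1L was below the young libraries in every old library too, as were 10.9% of all genes. Old Drp1-mut against Young Drp1-mut called none of the 8 (0.705% of all genes), and neither did Old Marf-mut against Young Marf-mut (3.39%, or 244 genes, with 105 called without replicate 1 of Old Marf-mut and 727 without replicate 3 of Young Marf-mut). In Drp1-mut, Hsc70-3 had 819, 912 and 673 CPM in old libraries and 695, 609 and 605 CPM in young ones (0.34, SE 0.15, adjusted p = 0.4). In Marf-mut the median of the 8 genes was 0.18, with 6 of 8 values above 0, and Ire1 had the largest value (0.39).

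**Figure D3:**
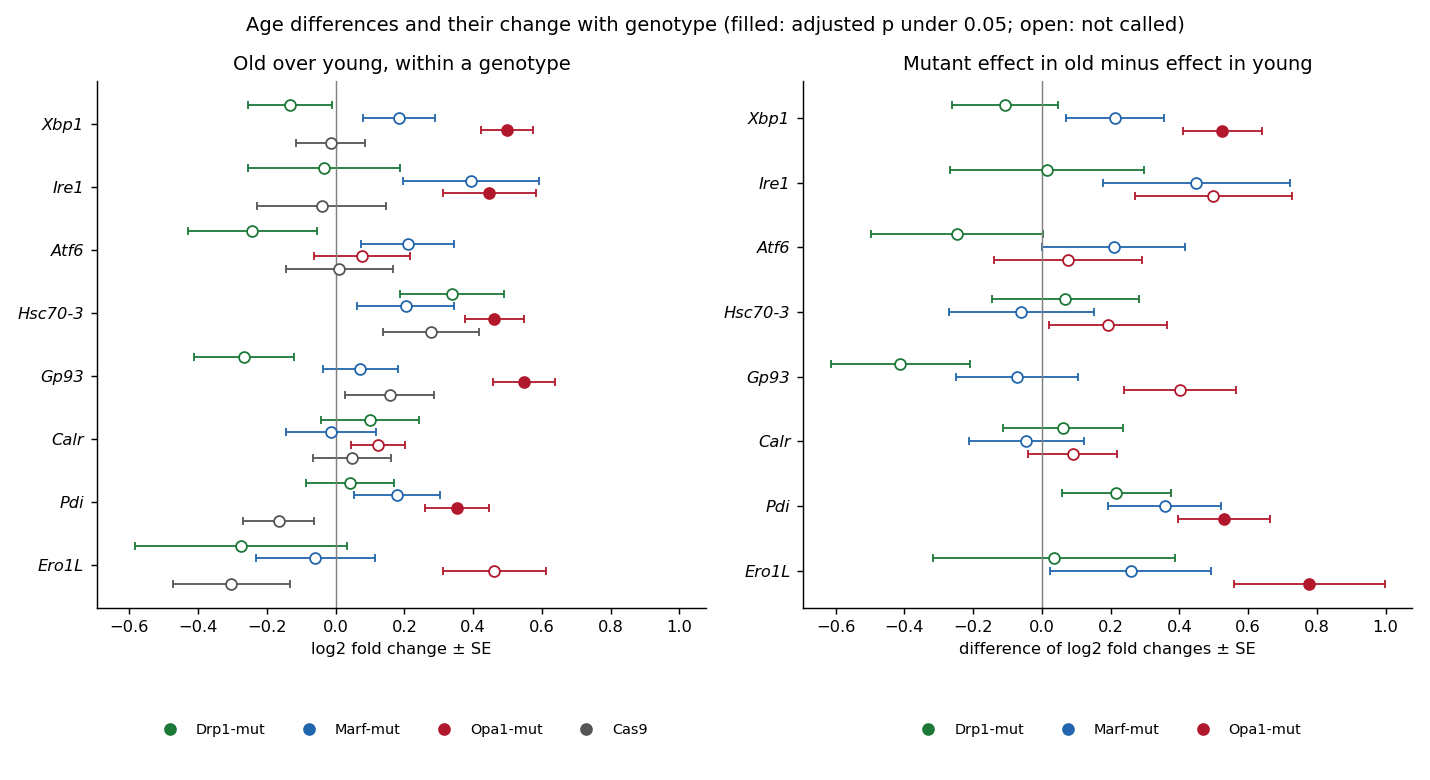
Log2 fold change of old over young libraries within each genotype (left) and the mutant effect in old flies minus that in young flies (right), each with its SE, for the 8 genes. Filled points have an adjusted p under 0.05 (edgeR). Filled points appear only for Opa1-mut, at Xbp1, Ire1, Hsc70-3, Gp93 and Pdi on the left and at Xbp1, Pdi and Ero1L on the right.

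Guides against the other genes moved none of the 8 past the threshold. Old Drp1-mut against Old Cas9 called none (0.394% of all genes were called) and had no unadjusted p under 0.05. Values there ran from -0.26 for Gp93 to 0.18 for Pdi. Pdi lay above Old Cas9 in every Old Drp1-mut and every Old Marf-mut library, as did 5.93% and 11.2% of all genes. Old Marf-mut against Old Cas9 called none either (4.58% of all genes). There Atf6, the factor held in the membrane, stood at 92.6, 89.6 and 83.6 CPM in Old Marf-mut, against 71.8, 61.9 and 79.1 CPM in Old Cas9 (0.31, SE 0.14, adjusted p = 0.258), without overlap, as were 11.2% of all genes in that direction. Gp93 stood at 182, 204 and 199 CPM in Old Marf-mut, against 262, 256 and 199 CPM in Old Cas9 (-0.30, SE 0.10, adjusted p = 0.106). Replicate 3 of Old Cas9, the lowest of its group, decides that value: without it Gp93 fell by 0.42 and was called (adjusted p = 0.00551). Young Drp1-mut against Young Cas9 called none of the 8 (0.0831% of all genes), with values from -0.04 to 0.14. Young Marf-mut against Young Cas9 called none (0.346% of all genes), although 7 of 8 values were below 0 with a median of -0.15. Xbp1 stood at 368, 371 and 378 CPM in Young Marf-mut, against 453, 467 and 421 CPM in Young Cas9 (-0.25, SE 0.12, adjusted p = 0.504), below it in every library, as were 8.3% of all genes.

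The effect of neither guide set was shown to differ with age for these genes. The Drp1-mut effect in old minus young flies called none of the 8 (0% of all 7256 genes were called by edgeR, where 260 had an unadjusted p under 0.05 and DESeq2 called 3). The Marf-mut effect called none of the 8 (0.284% of all genes). The lowest p there was that of Pdi (0.36, SE 0.16, adjusted p = 0.458).

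Set against the other old mutants, in comparisons added after the values were seen, Old Opa1-mut again stood higher. The same Old Opa1-mut libraries enter, so these are not independent of the results above. Old Opa1-mut against Old Marf-mut called 6 of the 8 genes, all higher, where 9.14% of 7244 genes were. The largest was Gp93 (log2 fold change 0.56, SE 0.08, adjusted p = 3.88e-05), followed by Hsc70-3 (0.55, SE 0.09, adjusted p = 0.000151) and Xbp1 (0.49, SE 0.08, adjusted p = 0.000142), and these 3 were called in each of the 6 fits that leave out a library. Ire1 (0.48, adjusted p = 0.0308), Pdi (0.29, adjusted p = 0.0172) and Calr (0.26, adjusted p = 0.027) were called as well, with 3 to 5 of the 8 genes called when a library was left out. The count was 3 without replicate 2 of Old Marf-mut and without replicate 1 or 2 of Old Opa1-mut. Ero1L, at 0.40, was not called (SE 0.16, adjusted p = 0.0935). Atf6 had the opposite sign, at -0.17 (adjusted p = 0.414).

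Old Opa1-mut against Old Drp1-mut called 3 of the 8 genes, all higher, where 5.63% of 7050 genes were called higher. They were Xbp1 (0.57, SE 0.09, adjusted p = 0.000727), Ire1 (0.74, SE 0.19, adjusted p = 0.0184) and Gp93 (0.53, SE 0.12, adjusted p = 0.00875). Ire1 lost its call without replicate 2 of Old Drp1-mut and without replicate 2 or 3 of Old Opa1-mut, and 2 genes were then left. Hsc70-3 was not called (0.28, SE 0.11, adjusted p = 0.118), with 819, 912 and 673 CPM in Old Drp1-mut. Depth was 1492083, 1468850 and 1843669 UMIs in Old Opa1-mut, against 1148217, 767438 and 684175 UMIs in Old Drp1-mut, without overlap, and with log2 depth as a covariate none of the 8 was called. Under scaling by total counts 5 were called, the median of all genes was 0.13 and 83.1% of called genes were higher, against 55% under TMM.

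A test for any difference among the 8 groups called 5 of the 8 genes, where 22% of 7670 genes were called. The adjusted p was 4.49e-05 for Xbp1, 0.00231 for Hsc70-3, 0.00324 for Gp93, 0.00569 for Ire1 and 0.0345 for Pdi. Atf6 (0.237), Calr (0.338) and Ero1L (0.383) were not called. Without replicate 3 of Old Opa1-mut Ire1 lost its call (adjusted p = 0.0545). Pdi lost its call in 8 of 24 omissions, of replicate 1 or 3 of Young Marf-mut, 1 or 2 of Old Marf-mut, 1 or 2 of Old Opa1-mut and 1 or 3 of Old Cas9. Over the 24 libraries the correlation of log2 CPM between members ran from -0.36 (Atf6 with Calr) to 0.73 (Xbp1 with Gp93) over 28 pairs, with a median of 0.44. For deviations from the group means the median was 0.09. The libraries share suspensions and differ in depth, and the correlations are given as a description.

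With suspensions as samples (8 sums of 3 libraries, age and genotype as terms, 3 residual degrees of freedom), no guide set moved any of the 8 genes past the threshold. Drp1-mut against Cas9 called none of the 8 (0.0854% of 8195 genes), nor did Marf-mut (0.11%) or Opa1-mut (0.61%). In Opa1-mut all 8 values were above 0, with a median of 0.12 against 0.00 for all genes. Ire1 stood at 0.53 (SE 0.16, adjusted p = 0.247) and Hsc70-3 at 0.31 (SE 0.10, adjusted p = 0.254), both with an unadjusted p under 0.05. This fit takes a genotype's effect as equal at both ages. Old against young suspensions called 1 of the 8, Hsc70-3, which was higher in old flies (0.34, SE 0.07, adjusted p = 0.0306), where 2.82% of 8195 genes were called higher. The mean level of Hsc70-3 was 801, 673, 976 and 739.8 CPM in old Drp1-mut, Marf-mut, Opa1-mut and Cas9. In the young groups it was 636, 579, 711 and 616 CPM in that order, so the group mean was higher in old neurons in all 4 genotypes. Old and young libraries overlapped in Drp1-mut, Marf-mut and Cas9. The call was lost in 6 of 8 fits that leave out a suspension, those without either Drp1-mut, Marf-mut or Cas9 suspension (adjusted p up to 0.157). It was also lost under scaling by total counts, where 58% of called genes were higher, against 79.4% under TMM.

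The named genes most like Hsc70-3 over the 24 libraries, of 3922 ranked by Pearson's r of log2 CPM, were CycG (0.904), Eno (0.852), crc (0.85), Gapdh2 (0.845) and pAbp (0.841). Of the other 7 genes Calr (0.679) came closest, followed by Xbp1 (0.588) and Pdi (0.549), with Ero1L (0.093) and Atf6 (0.022) the least alike.

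The rest of the ER pathway was described with 9 lists of genes. Their 121 names gave 111 rows of the table, with names of the same row counted once. In Old Opa1-mut against Old Cas9, 16 of 106 list genes tested rose and none fell, or 15.1%, where 7.54% of all genes were called higher; the median was 0.17. The PERK and ATF4 branch had the most, 5 of 9 genes with a list median of 0.67. That list goes beyond PEK and crc and also holds Gcn2, which is not among the ER sensors named above, and subunits of eIF2. Gcn2 was among the 5 called genes, at 0.67, a value like that of PEK. The count is therefore not one of the ER branch alone. PEK, the ER kinase that phosphorylates eIF2alpha, stood at 61.3, 68.2 and 77.7 CPM in Old Opa1-mut, against 44.2, 37.5 and 49.9 CPM in Old Cas9 (0.67, SE 0.17, adjusted p = 0.00845). The factor crc stood at 870.2, 875 and 882 CPM in Old Opa1-mut, against 705, 717 and 722 CPM in Old Cas9 (0.29, SE 0.09, adjusted p = 0.0258). Xrp1, a stress-induced leucine zipper factor (0.68, SE 0.09, adjusted p = 1.24e-05), and eIF2beta, a subunit of the initiation factor eIF2 (0.98, SE 0.10, adjusted p = 5.09e-07), rose too. Leaving out a library left 2 to 5 of the 9, with 2 without replicate 2 of Old Cas9 and 3 without replicate 1, 2 or 3 of Old Opa1-mut. With log2 depth as a covariate 1 of the 9 was called, and the list median was 0.55.

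Of the ER folding enzymes and chaperones 3 of 13 rose. CaBP1, a protein disulfide isomerase family member, stood at 278, 279.5 and 268 CPM in Old Opa1-mut, against 162, 210.2 and 160 CPM in Old Cas9 (0.63, SE 0.10, adjusted p = 0.000219). Manf, a secreted ER stress protein (0.36, SE 0.10, adjusted p = 0.0249), and ERp60, a disulfide isomerase (0.29, SE 0.09, adjusted p = 0.0291), were the others. The count was 1 without replicate 1 or 2 of Old Opa1-mut or replicate 1 or 3 of Old Cas9, 2 without replicate 3 of Old Opa1-mut, 1 with DESeq2 and 0 with log2 depth as a covariate, where the list median was 0.16, against 0.20 without the covariate. Among genes of glycosylation and glycan quality control 3 of 15 rose, Ost48 (0.51) and Ostgamma (0.41), subunits of the oligosaccharyltransferase, and the mannosyltransferase gene Alg3 (0.97). That count was 1 without replicate 1 of Old Opa1-mut, 2 without replicate 3 of Old Opa1-mut or replicate 1 or 3 of Old Cas9, 2 with DESeq2 and 0 with log2 depth as a covariate (list median 0.22, against 0.29 without it). Of genes of Ire1 signalling and ER stress death 2 of 8 rose, puc (1.12, SE 0.15, adjusted p = 1.31e-05), the Jun kinase phosphatase, and BI-1 (0.30), an ER membrane protein that limits cell death, and 1 was left without replicate 1 or 2 of Old Opa1-mut or replicate 2 of Old Cas9. Of genes of ER exit, retrieval and recycling 2 of 20 rose, Sec22 (0.58), a SNARE, and loj (0.52), a p24 cargo protein. Of these 1 was left without replicate 1 or 2 of Old Opa1-mut or replicate 1 of Old Cas9. The count was 1 with DESeq2 and 0 with log2 depth as a covariate. In Old Cas9 against Young Cas9 loj was called lower (-0.65, SE 0.16, adjusted p = 0.032, edgeR). Of the list of ER-associated degradation 1 of 15 rose, Ubc6 (0.50, SE 0.09, adjusted p = 0.000422), and 2 were called without replicate 2 of Old Cas9. Ubc6 is a ubiquitin-conjugating enzyme that was listed by name, and a role of fly Ubc6 in ER-associated degradation was not checked. It is counted in the pooled share of list genes, and no other gene of its list was called. Against the 7.54% of all genes called higher, these shares of the lists of ER exit and ER-associated degradation are near the background. None of 17 genes of translocation and signal recognition (median 0.14), 4 of the Atf6 site proteases and SREBP factors (median -0.08) or 5 of ER calcium (median -0.12) was called by edgeR.

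**Figure D4:**
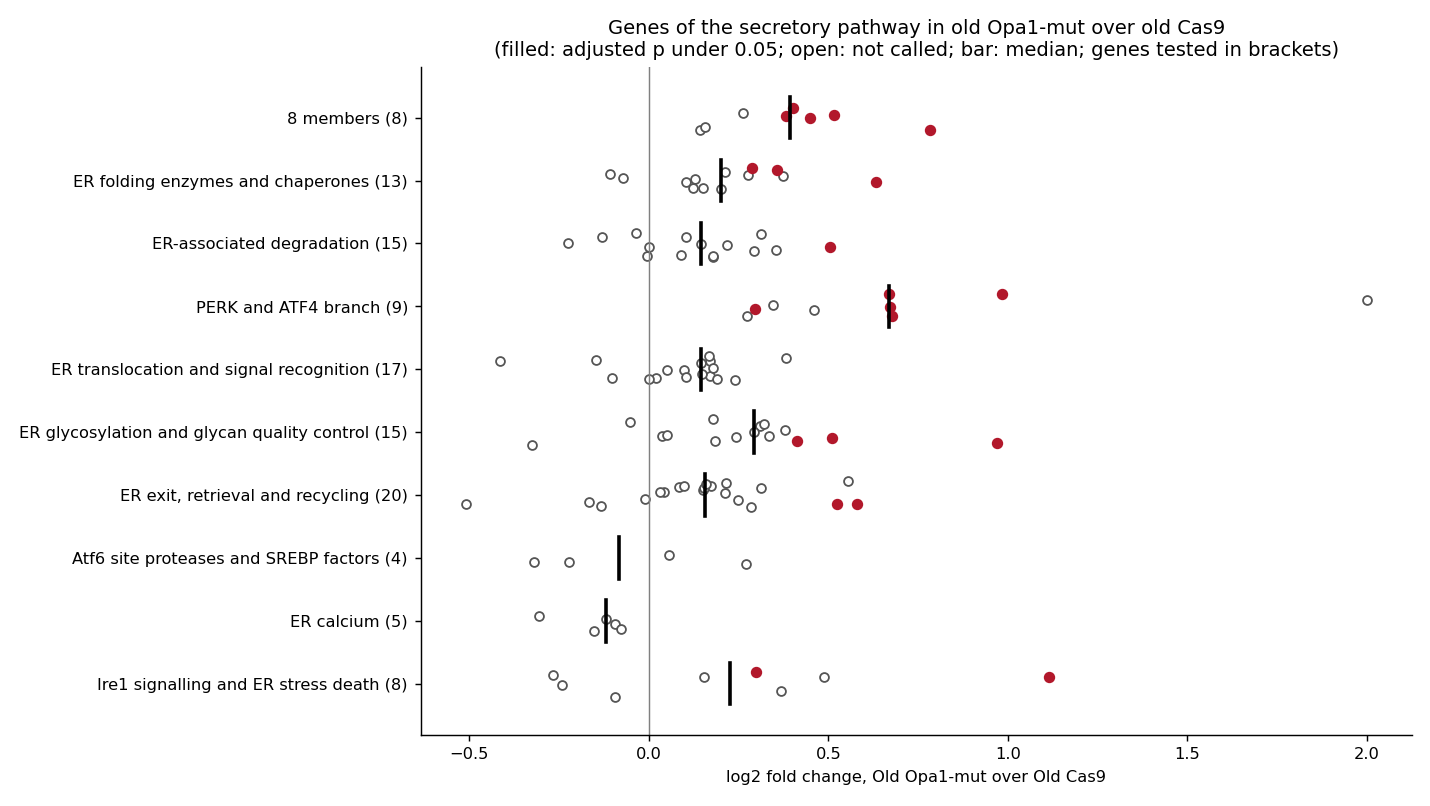
Log2 fold change of Old Opa1-mut over Old Cas9 for the 8 genes (top row) and for the genes of the 9 pathway lists, with the number tested in brackets. Each point is a gene, filled with an adjusted p under 0.05 (edgeR), and the black bar is the list median. The 8 genes have a median of 0.39, the PERK and ATF4 branch 0.67, and the medians of the lists of ER calcium (-0.12) and of Atf6 site proteases (-0.08) lie below 0.

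Of the other mutants against Cas9, Young Opa1-mut had 2 of 107 list genes higher, Xrp1 (0.60, SE 0.10, adjusted p = 0.00384) and Alg3 (0.87, SE 0.22, adjusted p = 0.0459), where 163 of all 7166 genes were, so the 1.87% of list genes was no more than the background. Old Marf-mut, Old Drp1-mut, Young Marf-mut and Young Drp1-mut had none in either direction by edgeR. Old Opa1-mut against Young Opa1-mut had 14 of 107 higher (13.1%, against 7.62% of all genes) and 2 lower. The lower ones were Srp14 of the signal recognition particle (-0.45) and olf186-F, the store-operated calcium channel Orai (-0.69). Old Marf-mut against Young Marf-mut had 3 of 107 higher (2.8%), Xrp1 (0.46), eIF2beta (0.48) and puc (0.62). There 189 of all 7204 genes were called higher, and 3.39% were called in either direction. In Old Cas9 against Young Cas9 Xrp1 was higher (0.48, adjusted p = 0.0157, edgeR) and loj lower (-0.65, adjusted p = 0.032). Among all genes 2.45% were called there. Old Drp1-mut against Young Drp1-mut had none. The Opa1-mut effect in old minus young flies was called above 0 by edgeR for 10 of 108 list genes (9.26%, against 2.36% of all genes). With log2 depth as a covariate no gene of the whole table was called. Among the 10 were CaBP1 (0.79, SE 0.16, adjusted p = 0.00518) and the ER-associated degradation gene Herp (0.74, SE 0.20, adjusted p = 0.0287). PPP1R15, which directs the phosphatase of eIF2alpha (0.66, SE 0.17, adjusted p = 0.024), and KdelR, the receptor that returns ER proteins (0.56, SE 0.16, adjusted p = 0.0413), were others. Ubc6, whose place in its list was not checked, is counted too (0.50, adjusted p = 0.0248). In Old Opa1-mut against Old Cas9 Herp (0.35), PPP1R15 (0.27) and KdelR (0.22) were not called, so a rise in old flies was not shown for them. Herp had means of 88.1 CPM in Old Opa1-mut, 69.3 CPM in Old Cas9, 71.8 CPM in Young Opa1-mut and 93.8 CPM in Young Cas9. The difference was below 0 for Srp14 (-0.81, SE 0.19, adjusted p = 0.0147). With suspensions as samples 1 list gene was higher in Opa1-mut against Cas9, Xrp1 (0.63, SE 0.09, adjusted p = 0.0224). Xrp1 was also the 1 list gene higher in old against young suspensions (0.46, SE 0.07, adjusted p = 0.00808, edgeR). That is 0.926% of list genes, against 2.82% of all genes.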

How the data were processed

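The deposited table holds counts, whole UMIs per gene and library, unnormalized per the file's values; the libraries were made by Smart-seq3 per the labels' protocols. The submitters' processing notes name STAR and dm6. Which version and annotation were used, how UMIs were counted and whether strand was used: not given in the sources used here. The authors also deposited DESeq2 tables of each mutant against Cas9 at each age, in which fold changes are log2 values with a p-value, per the file headers. Per the file headers the same tables hold a mean, a standard error and a test statistic, each read as a score.

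Counts were tested by quasi-likelihood F tests in edgeR 4.0.16 under R 4.3.3 (TMM scaling, factors 0.904 to 1.145, filterByExpr by group, robust dispersions), fitted to the 6 libraries of a comparison (12 for differences between ages, 24 for any difference). Adjustment was by Benjamini-Hochberg over all genes that passed the filter. Genes with an adjusted p under 0.05 count as called. No pair of libraries of a group agreed within sampling noise (chi-square per degree of freedom 3.27 to 20.8 over 24 pairs), so none was treated as a library deposited again; this does not make pools of the same suspension independent. The fitting steps were tested on simulated data for part of the comparisons, and the other steps were not.

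The 8 genes and the lists were chosen with earlier results of these data known. A fold change with its SE is given for a member where its unadjusted p is under 0.05, and up to 4 called genes are named per list and comparison. Values of a member or list gene outside this rule, Gcn2 among them, are given as description. Genes like Hsc70-3 are named genes with a mean of at least 20 CPM. Alternatives were DESeq2 size factors, scaling by total counts, no filter, DESeq2 1.42.0 as the test, thinning, log2 depth, a replicate block, a fit of all 24 libraries and leaving out each library or suspension; a group left with 2 libraries is assumed to vary like the others. No sequences are shown.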

Additional observations from a re-analysis of the deposited data

Results flagged for a closer look

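The Opa1-mut effect differed between ages by a test of the difference itself for 3 of the 8 genes. The difference of log2 fold changes, old minus young, was 0.53 for Xbp1, 0.53 for Pdi and 0.78 for Ero1L (edgeR, adjusted p = 0.0107, 0.0219 and 0.0387 in that order). For Xbp1 the effect was 0.45 in old flies and -0.08 in young flies, for Pdi 0.38 in old flies and -0.15 in young flies, and for Ero1L 0.52 in old flies and -0.26 in young flies. Each age is a single suspension per genotype, so differences between suspensions cannot be told apart from these. The mean of Pdi was 496 CPM in Old Cas9 and 563 CPM in Young Cas9, and that of Ero1L 45.5 and 56.7 CPM. For both, every Old Cas9 library lay below every Young Cas9 library, as did 10.9% of all genes. How far this enters the differences was not tested. The call held in all 12 fits that leave out a library for Xbp1, in 7 for Pdi and in 3 for Ero1L. Ero1L was not called in the edgeR test for any difference among the 8 groups (adjusted p = 0.383).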

How the results depend on the processing

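Of the comparisons in which none of the 8 genes was called, all but Old Marf-mut against Old Cas9 stayed at 0 under every alternative run; there the count was 0 to 1 when a library was left out. When a library or suspension was left out, the number of genes called was 3 to 5 for Old Opa1-mut against Old Cas9, 3 to 4 for Old Opa1-mut against Young Opa1-mut, 1 to 3 for the Opa1-mut effect in old minus young flies, 3 to 5 for Old Opa1-mut against Old Marf-mut, 2 to 4 for Old Opa1-mut against Old Drp1-mut, 4 to 5 for any difference among groups and 0 to 1 for old against young suspensions.

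With log2 depth as a covariate the count fell to 0 for Old Opa1-mut against Old Cas9, for the Opa1-mut effect in old minus young flies and for Old Opa1-mut against Old Drp1-mut, while the called folds of the Opa1-mut effect between ages stood at 0.65 for Xbp1, 0.66 for Pdi and 0.96 for Ero1L. Gp93, not called in either fit, turned to -0.035 there (adjusted p = 0.99). In the fit of all 24 libraries it was 3 for Old Opa1-mut against Old Cas9, 3 for Old Opa1-mut against Old Marf-mut and 1 for the Opa1-mut effect between ages. DESeq2 as the test gave 3 for Old Opa1-mut against Young Opa1-mut and 3 for Old Opa1-mut against Old Marf-mut. Scaling by total counts gave 5 for Old Opa1-mut against Old Drp1-mut and 0 for old against young suspensions. The cause of these changes was not tested.

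Replicate numbers do not pair the libraries: the correlation of deviations of same-numbered libraries ran from -0.13 to 0.12, and in none of 10 comparisons were all 3 pairs over 0.1. In 1 of them, Old Opa1-mut against Old Cas9, every library correlated best with its own number, a hint from the data and not the design. With the replicate block 6 of the 8 genes were called in Old Opa1-mut against Old Cas9, 5 in Old Opa1-mut against Young Opa1-mut, 3 in the Opa1-mut effect between ages and 5 among all groups.

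Among all genes the count for Old Opa1-mut against Old Cas9 was 939 by edgeR, 625 by DESeq2 and 202 with log2 depth as a covariate. For Old Opa1-mut against Young Opa1-mut it was 893 and 556 by DESeq2, for the Opa1-mut effect between ages 417 and 0 with log2 depth, and for Old Opa1-mut against Old Drp1-mut 722 and 38 with log2 depth. When a library was left out it was 647 to 858 for Old Opa1-mut against Old Cas9, 594 to 802 for Old Opa1-mut against Young Opa1-mut, 232 to 536 for the Opa1-mut effect between ages, 794 to 1158 for Old Opa1-mut against Old Marf-mut, 360 to 843 for Old Opa1-mut against Old Drp1-mut, 201 to 468 for Old Marf-mut and 24 to 71 for Old Drp1-mut against Old Cas9, 6 to 68 for Young Marf-mut and 2 to 41 for Young Drp1-mut against Young Cas9, 17 to 56 for Old Drp1-mut against Young Drp1-mut and 0 to 140 for the Marf-mut effect between ages. When a suspension was left out it was 63 to 433 for old against young (291 with all) and 12 to 215 for Opa1-mut against Cas9 (50). Without a filter on low counts it was 82 for Young Drp1-mut (6 with it), 141 for Young Marf-mut (25), 594 for Young Opa1-mut (211), 93 for Old Drp1-mut (27) and 482 for Old Marf-mut (325), each against Cas9 of its age, and 195 for Old Drp1-mut against Young Drp1-mut (49). It was 663 with log2 depth for Old Marf-mut against Young Marf-mut (244 without it), and 0 with log2 depth and 363 with the replicate block for Old Cas9 against Young Cas9 (174 by edgeR without either). Under scaling by total counts the median of all genes ran from -0.14 to 0.13 over the comparisons. The higher share of called genes was then 62% for Old Marf-mut against Old Cas9 (36.6% under TMM). It was 70.6% for Young Marf-mut against Young Cas9 (60% under TMM). For old against young libraries it was 70% in Drp1-mut (87.8% under TMM) and 58.1% in Cas9 (86.8% under TMM). Depth limits Ire1, Atf6 and Ero1L most, which had at most 255 UMIs in a library.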
